A study of Mus musculus with 20 samples.

Results

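The miR-379 to miR-410 cluster is a row of microRNA (miRNA) hairpins on mouse chromosome 12, inside the imprinted Dlk1-Dio3 domain. Its members here were all rows of the deposited tables named for one of the 35 hairpins of the cluster, on either arm, chosen by name and not by any measured value. They came to 69 mature miRNAs of the 1481 in the series. Of these, 34 were 5p and 35 were 3p forms, and 34 hairpins had both arms listed. The hairpin of miR-1197 had its 3p form alone. The cluster runs from base 109709060 to base 109743795 of chromosome 12 on the plus strand (GRCm38), which is 34736 bp. Its working name points to Mirg, a long noncoding RNA, but in the GENCODE M21 annotation of GRCm38 only 12 of the 35 hairpins lie within Mirg, 4 of them in exons and 8 in introns. The other 23 lie upstream of it, outside any annotated gene.

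The libraries were small RNA-seq of primary cortical neurons taken from mouse embryos at day 15 of gestation and cultured for 7 days. They came from wild type (WT) mice or from mice lacking ciRS-7 (KO), a circular RNA also called Cdr1as, and the strain entry was C57BL/6N-Cdr1asem1Nikr for both genotypes. Each genotype spent 12 h in normoxia (5% CO2 at 37 °C, medium with 25 mM D-glucose and pyruvate at 0.2 mM) or in deprivation of oxygen and glucose (OGD: 1% O2 with 5% CO2, also at 37 °C, neither glucose nor pyruvate added). The 4 groups, WT in normoxia, WT after OGD, KO in normoxia and KO after OGD, held 5 libraries each, which the design text calls biological replicates. OGD in a dish is a common model of ischaemia, and the comparison asks which miRNAs differ after it and whether the loss of ciRS-7 alters that.

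The miRNAs of this domain are expressed from the maternal chromosome and are most abundant in brain. They are cut from a long primary transcript, first by Drosha into hairpins and then by Dicer into a duplex of a 5p and a 3p arm, of which usually one is kept in an Argonaute protein and the other is lost. Bases 2 to 8 of a mature miRNA, the seed, choose most of its target mRNAs. In neurons the cluster is known for its induction by the activity-dependent factor Mef2 and for its part in dendrite growth, where miR-134 acts on Pum2 and, in spines, on Limk1. The hairpins arose largely by tandem duplication, and many belong to the miR-154 family.

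The sequences that carry the results are printed 5′ to 3′ as RNA, from RefSeq (GRCm38.p6), where 65 of the 69 mature forms had an entry. In the hairpins, capitals mark the mature arms. The first 4 are shown because one arm changed after OGD by far more than its partner, and miR-154 because both of its arms were called. For miR-485 the 5p arm had no entry, so capitals mark its 3p arm alone.
miR-410 hairpin (chr12:109743715-109743795, + strand): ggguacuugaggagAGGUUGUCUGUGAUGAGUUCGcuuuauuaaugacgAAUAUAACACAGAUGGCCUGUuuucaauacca
miR-485 hairpin (chr12:109734902-109734974, + strand): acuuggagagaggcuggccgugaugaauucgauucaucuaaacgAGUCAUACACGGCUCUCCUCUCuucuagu
miR-376a hairpin (chr12:109723781-109723848, + strand): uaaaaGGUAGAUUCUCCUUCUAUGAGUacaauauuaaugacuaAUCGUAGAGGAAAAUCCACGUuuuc
miR-409 hairpin (chr12:109743158-109743236, + strand): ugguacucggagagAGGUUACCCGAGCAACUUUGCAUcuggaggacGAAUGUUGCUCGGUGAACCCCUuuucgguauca
miR-154 hairpin (chr12:109738433-109738498, + strand): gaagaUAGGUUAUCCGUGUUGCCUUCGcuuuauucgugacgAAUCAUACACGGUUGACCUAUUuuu

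In the mature forms, capitals mark the seed. The first set fell after OGD in both genotypes. It is shown with miR-494-5p because that form has the seed of miR-410-5p, GGUUGUC.
miR-410-5p: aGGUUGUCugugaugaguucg
miR-494-5p: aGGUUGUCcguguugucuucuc
miR-409-3p: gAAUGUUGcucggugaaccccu
miR-543-3p: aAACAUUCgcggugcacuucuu
miR-411-3p: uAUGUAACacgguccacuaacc
miR-379-3p: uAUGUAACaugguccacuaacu
miR-412-5p: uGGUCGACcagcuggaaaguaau
miR-369-5p: aGAUCGACcguguuauauucgc
The second set rose in both genotypes under each of 3 scalings that are described with the counts of calls.
miR-376a-3p: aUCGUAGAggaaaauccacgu
miR-485-3p: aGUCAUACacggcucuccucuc
miR-154-5p: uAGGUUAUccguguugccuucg
The third set holds the opposite arms of hairpins whose arm ratio shifted, and the most abundant form of the cluster.
miR-410-3p: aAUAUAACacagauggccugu
miR-409-5p: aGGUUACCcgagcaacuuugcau
miR-376a-5p: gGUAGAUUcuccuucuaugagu
miR-369-3p: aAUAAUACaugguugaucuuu
miR-381-3p: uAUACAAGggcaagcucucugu

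Shared letters limit what some rows can tell apart. The forms miR-379-3p and miR-411-3p have the same seed, AUGUAAC, and differ by 2 edits over their length, and both fell. A 3-edit distance separates miR-376a-3p from miR-376b-3p, and likewise miR-300-3p from miR-381-3p. A single edit separates miR-376b-5p from miR-376c-5p, and miR-299a-5p from miR-299b-5p of another hairpin. Other seeds shared within the cluster were GGUAGAC (miR-379-5p and miR-1193-5p) and UGGAUAU (miR-376b-5p and miR-376c-5p). How reads that fit several miRNAs were counted is not given in the sources used here, so values of these close pairs are uncertain in how reads were split between them.

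Recovered miRNA reads came to 2492065 to 12477032 per library in normoxia and 1160582 to 4374002 after OGD, so a floor of 3 reads lies between 0.249 and 2.55 CPM (reads scaled by library size). Neuronal markers (miR-124-3p, miR-9-5p, miR-128-3p, miR-138-5p and miR-218-5p) summed to 292320 to 389307 CPM over the libraries, most of it miR-9-5p, while 5 markers of microglia and other blood-derived cells summed to 0.867 to 5.59 CPM and 3 oligodendrocyte markers to 5.86 to 15.3 CPM. Single neuronal markers differed after OGD in opposite directions: miR-124-3p (log2 change 0.74 in WT and 0.56 in KO) and miR-138-5p (0.95 and 0.87) were called higher and miR-128-3p (-0.57 and -0.53) lower by limma in both genotypes. With centring miR-124-3p lost both calls (0.18 and 0.05), and with quantile normalization miR-128-3p lost the one in KO (-0.28). With centring miR-9-5p was called lower in both (-0.59 and -0.43) and miR-218-5p in KO (-0.57). Among the markers of other cell types, miR-338-3p of oligodendrocytes (0.75) and miR-133a-3p of muscle (0.90) were called higher in KO and miR-126a-5p of the vessel wall (0.57) in WT, each of them lost with centring and with quantile normalization. Others of the same lists were not called on the scale of total reads, and their directions were mixed. Lower were miR-219a-2-3p (-0.30 in KO), miR-1a-3p (-0.35 in WT and -0.11 in KO) and miR-126a-3p (-0.06 and -0.13). In WT miR-219a-5p (-0.36) was also lower. Higher in WT, and not called, were miR-145a-5p (0.66), miR-143-3p (0.14), miR-206-3p (0.18), miR-219a-2-3p (0.18), miR-338-3p (0.37) and miR-133a-3p (0.80). With centring miR-1a-3p (-0.91 and -0.62) and miR-126a-3p (-0.62 and -0.64) were called lower in both genotypes, and miR-1a-3p also with quantile normalization (-0.995 and -0.66). With quantile normalization miR-143-3p was called lower in WT (-0.50). With centring miR-144-3p of blood-derived cells, on at most 5 reads per library, was called lower in KO (-0.78). Markers of the vessel wall summed to 306 to 446 CPM and those of muscle to 33.6 to 58.7 CPM. A set of 5 rows that earlier work on these data had shown to move with OGD (miR-3535, miR-6238, miR-6240, miR-12188-5p and miR-6481) summed to 97.5 to 889 CPM in normoxia and 2392 to 6915 CPM after OGD. Replicate 5 of normoxic WT was both the shallowest normoxic library and the one at 889 CPM. The part of depth and of these rows in the changes given here was not tested beyond the thinned and left-out values given beside them. In such bulk libraries, fewer cells of a type and less RNA per cell cannot be told apart.

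The cluster supplied about 3% of all miRNA reads, on average 3.25% in normoxic WT, 3.12% in OGD WT, 3.26% in normoxic KO and 3.03% in OGD KO libraries. Its summed level was 32717 ± 1940 CPM (SD, n = 5) in normoxic WT and 31209 ± 3659 CPM after OGD. For the KO libraries the sum came to 32328 ± 1993 CPM under normoxia and 30270 ± 2286 CPM after OGD. The libraries of the 2 conditions overlapped in both genotypes, with normoxic WT at 31073 to 35430 CPM and OGD WT at 27153 to 36690 CPM. The 33 other miRNAs of the domain that have rows (such as miR-127, miR-433 and miR-341, which lie outside the cluster) summed to 34191 ± 1926 CPM in normoxic WT and 25905 ± 2858 CPM after OGD, and 34060 ± 2155 and 24362 ± 2064 CPM in KO. For these neighbours each OGD library of a genotype lay under each of its normoxic libraries. These sums are descriptions and carry no test.

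**Figure D1:**
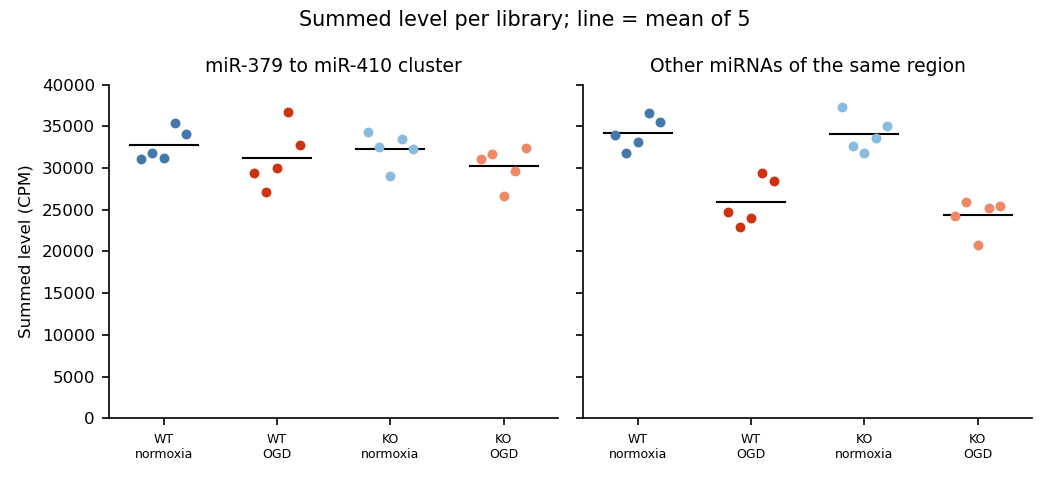
Summed level of the 69 cluster members (left) and of 33 other miRNAs of the same imprinted domain (right) in CPM; each point is a library and each line the mean of 5. The cluster's groups overlap, while the neighbours' sums, weighted to their most abundant forms, lie lower in the OGD libraries than in the normoxic ones in both genotypes.

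A few forms made up most of that level. The 6 most abundant held 62.4% to 65.4% of the cluster's CPM in the 4 groups, and miR-381-3p alone held 23.9% to 27.8%. Over all 20 libraries, 10 members averaged at least 1000 CPM, 25 at least 100 CPM and 59 at least 1 CPM, and 54 had a read in every library. Of the 34 hairpins with both arms, 19 gave more 3p and 15 more 5p.

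The most abundant form, miR-381-3p, stood at 6483, 7517, 7704, 9606 and 10000 CPM in the normoxic WT libraries and at 8103, 6555, 8378, 11131 and 9186 CPM after OGD. In KO the values were 8340, 7862, 6894, 8138 and 7464 CPM in normoxia and 8411, 8106, 7220, 6854 and 8861 CPM after OGD. All 4 groups overlapped, and the log2 fold changes of OGD over normoxia, 0.07 ± 0.14 (SE) in WT and 0.02 ± 0.09 in KO, were not called (limma adjusted p = 0.75 and 0.86). With centred libraries, each shifted to a common median of its better-expressed features, both turn negative and were called, at -0.49 and -0.49.

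Next came miR-379-5p, from the first hairpin of the cluster, with 3488, 3415, 3309, 4252 and 4279 CPM in normoxic WT and 2998, 2814, 2824, 3905 and 3465 CPM after OGD. In KO it had 4009, 3109, 2847, 3591 and 4086 CPM in normoxia and 2961, 2922, 2502, 3139 and 3061 CPM after OGD. The groups overlapped in both genotypes, and the log2 changes of -0.23 ± 0.11 and -0.26 ± 0.10 were not called (limma adjusted p = 0.15 and 0.073). With centring both were called, at -0.79 in WT and -0.77 in KO, and with quantile normalization the KO change alone was (-0.34, limma adjusted p = 0.035). Without replicate 3 of normoxia the KO change was -0.34 and called (limma adjusted p = 0.023, the lowest over the left-out libraries). The third, miR-300-3p, had 2880, 2737, 2953, 3091 and 2786 CPM in normoxic WT and 3038, 2729, 3423, 3651 and 3394 CPM after OGD. Its KO libraries had 2912, 2995, 2614, 3110 and 2853 CPM in normoxia and 3084, 3329, 2874, 3154 and 3528 CPM after OGD. The groups overlapped, the log2 changes of 0.16 ± 0.09 and 0.14 ± 0.08 were not called (limma adjusted p = 0.24 and 0.21), and with centring both turned negative and were called (-0.40 and -0.37).

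The calls of the other abundant forms depended on the scaling. The level of miR-323-3p was 2403, 2293, 2198, 2384 and 2040 CPM in normoxic WT and 1667, 1873, 1953, 2179 and 2143 CPM after OGD. In KO it was 2411, 2290, 1968, 2511 and 2605 CPM in normoxia and 1779, 1968, 1578, 2206 and 2115 CPM after OGD. The groups overlapped in both genotypes. On the scale of total reads it was called in KO alone (log2 change -0.29 ± 0.10, limma adjusted p = 0.044), a call that was lost when any of 7 libraries was left out (limma adjusted p = 0.076 to 0.13) and on thinned libraries (limma adjusted p = 0.14), and the difference between genotypes was not called. It was called lower in both genotypes with centring (-0.77 in WT and -0.80 in KO) and with quantile normalization (-0.24 and -0.42, limma adjusted p = 0.041 and 0.016). For miR-382-5p the averages were 2231, 1978, 2230 and 1985 CPM in the order normoxic WT, OGD WT, normoxic KO and OGD KO. For miR-541-5p in the same order they were 1340, 1359, 1367 and 1546 CPM, with WT log2 changes of -0.17 ± 0.09 for miR-382-5p and 0.01 ± 0.11 for miR-541-5p, and KO changes of -0.17 ± 0.08 and 0.17 ± 0.10. None of these was called (limma adjusted p = 0.20, 0.93, 0.15 and 0.22). With centring all were called lower, at -0.74 in WT and -0.68 in KO for miR-382-5p and -0.55 in WT and -0.34 in KO for miR-541-5p. With quantile normalization miR-382-5p was called lower in KO (-0.30) and miR-541-5p in neither. The dendritic regulator miR-134-5p averaged 984 ± 129 CPM in normoxic WT and 988 ± 198 CPM after OGD, and 905 ± 128.1 and 871 ± 127.1 CPM in KO, with all groups overlapping and log2 changes of -0.01 ± 0.13 and -0.06 ± 0.11 that were not called. With centring miR-134-5p was called lower in both genotypes (-0.57 in WT and -0.57 in KO), and with quantile normalization in neither (-0.15 and -0.12). Its partner miR-134-3p stayed at 1.12 to 3.47 CPM in the 20 libraries, on 2 to 33 reads.

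OGD was compared with normoxia by limma on log2(CPM + 0.5), fitted to all features, with an adjusted p under 0.05 as the threshold. In WT, 20 of the 69 members passed, 13 higher and 7 lower after OGD. Over all 1478 features tested, 23.1% passed, 18.7% higher and 4.4% lower. In KO, 23 members passed, 13 higher and 10 lower, where 24.5% of 1479 features passed, 18.8% higher and 5.75% lower. The median log2 change of the members was 0.16 in WT and 0.02 in KO, against 0.32 and 0.24 over all features. Among features with a mean log2 level of at least 3 the medians were 0.17 for 44 members against 0.22 for 425 features in WT, and 0.03 for 42 members against 0.20 for 420 features in KO. The cluster holds more abundant forms than the table as a whole, and calls are more frequent among abundant forms. In a fit of the features at that level alone, 11 members were called higher (25.0%, against 37.4% of features) and 7 lower (15.9%, against 15.1%) in WT. In KO, 10 were higher (23.8%, against 42.6%) and 12 lower (28.6%, against 19.3%). Above that minimum the share of lower calls in WT was thus near that of all features, and the difference in KO was not tested.

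Single libraries moved these counts. Without replicate 4 of OGD WT, 8 members were called higher in WT instead of 13 (17.6% of all features). Without replicate 2 or 4 of normoxic KO, or replicate 3 of OGD KO, 6 members were called lower in KO instead of 10 (4.39% to 4.87% of all features). Without replicate 5 of normoxic WT, the library that stood apart, the WT calls were 11 higher and 9 lower (18.4% and 4.67% of all features). With all libraries thinned to the smallest total, 8 were higher and 7 lower in WT, where 13.5% and 2.91% of all features were, and 7 were higher and 7 lower in KO, where 12.0% and 3.45% were.

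The direction of the weaker changes depends on scaling. The median level of the features with a mean log2 level of at least 3 was 0.56 higher after OGD on the log2 scale in WT and 0.51 higher in KO, more than the median of their single changes (0.22 and 0.20). When each library was centred on that median level, 5 members were higher and 29 lower in WT (background 7.31% and 17.9%, 25.2% in all) and 4 higher and 34 lower in KO (7.57% and 21.9%, 29.5% in all). Quantile normalization gave 5 higher and 19 lower in WT (background 9.54% and 12.9%, 22.5% in all) and 4 higher and 24 lower in KO (9.53% and 12.6%, 22.1% in all). A change relative to total reads and a change relative to the library median are separate statements, so it is said of each described member where centring changes its call.

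Called in both genotypes with the same sign were 11 members higher and 7 lower. All 7 lower members were also called lower with centring and with quantile normalization in both genotypes: miR-379-3p, miR-411-3p, miR-543-3p, miR-409-3p, miR-412-5p, miR-369-5p and miR-410-5p. Of the 11 higher members, 3 were also called higher under both of those scalings in both genotypes: miR-376a-3p, miR-485-3p and miR-154-5p. The other 8 (miR-299a-3p, miR-679-5p, miR-666-3p, miR-376c-3p, miR-376b-3p, miR-544-3p, miR-154-3p and miR-410-3p) lost the call in at least one genotype under one of them. Groups without any overlap were seen for 8 members higher and 7 lower in WT (background 13.5% and 2.57%, 16.0% in all) and for 11 higher and 7 lower in KO (15.3% and 3.79%, 19.1% in all).

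**Figure D2:**
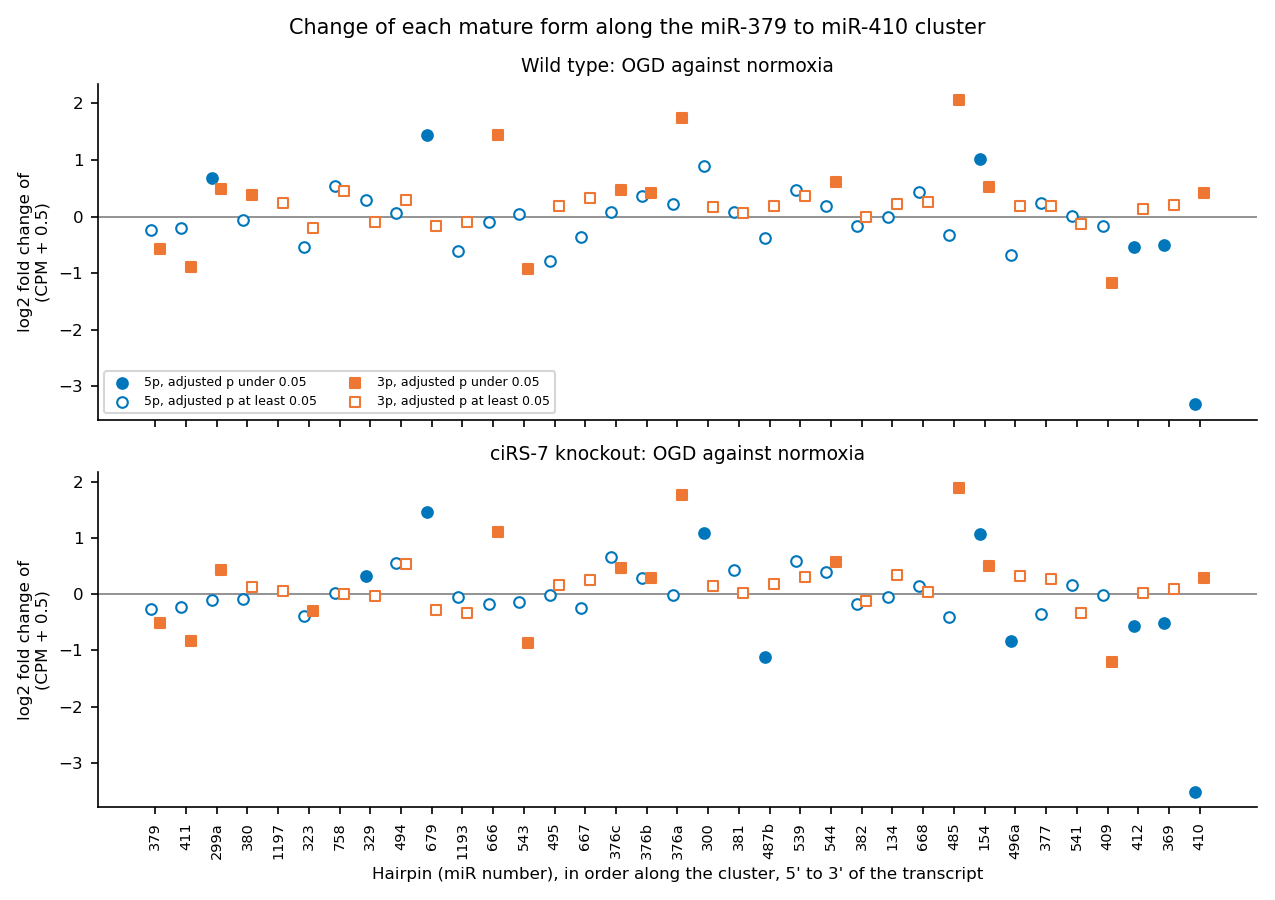
Log2 fold change of OGD over normoxia for each mature form, in WT (top) and KO (bottom), with the hairpins in genome order on the horizontal axis; circles are 5p, squares 3p, and filled symbols have a limma adjusted p under 0.05. The form miR-410-5p at the far end lies lowest in both genotypes, and filled symbols of both signs are spread along the cluster.

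The deepest fall was that of miR-410-5p, the minor arm of the last hairpin of the cluster, which lies in an exon of Mirg. It stood at 33.2, 23.2, 19.2, 36.5 and 22.7 CPM in the normoxic WT libraries and at 3.69, 1.61, 1.70, 4.17 and 1.004 CPM after OGD. In KO it stood at 38.01, 25.8, 30.0, 30.8 and 27.7 CPM in normoxia and at 2.93, 3.44, 2.39, 2.78 and 0.557 CPM after OGD. Each OGD library lay far below each normoxic one. The means went from 26.9 ± 7.44 to 2.43 ± 1.40 CPM in WT and from 30.4 ± 4.66 to 2.42 ± 1.11 CPM in KO (SD, n = 5). The log2 changes were -3.32 ± 0.31 (SE) and -3.52 ± 0.29, with limma adjusted p of 3.6e-07 and 1.6e-07, and with centred libraries -3.88 and -4.03. The OGD values rest on 2 to 15 reads per library in WT and 1 to 9 in KO, near the floor of 3 reads, and 3 OGD libraries held fewer than that. With every library thinned to the smallest total, the log2 changes of miR-410-5p were -3.43 in WT and -3.53 in KO.

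Its partner miR-410-3p, the major arm, moved the other way on the scale of total reads. It had 681, 771, 845, 827 and 649 CPM in normoxic WT and 803, 953, 1023, 1236 and 1039 CPM after OGD. In KO it had 765, 832, 821, 849 and 865 CPM in normoxia and 929, 1017, 862, 1065 and 1182 CPM after OGD. The groups overlapped in both genotypes. Its log2 changes of 0.41 ± 0.12 and 0.28 ± 0.09 were called (limma adjusted p = 0.016 and 0.027), but both turned to -0.15 and -0.23 with centring, and the calls were lost without some single libraries, 3 in WT (limma adjusted p = 0.050 to 0.056) and 6 in KO (0.050 to 0.072). The KO call was also lost with quantile normalization and on thinned libraries (0.28, limma adjusted p = 0.051).

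An abundant form that fell was miR-409-3p, the major arm of its hairpin in an intron of Mirg. Its levels were 1345, 1457, 1249, 1489 and 1593 CPM in normoxic WT and 581, 625, 577, 742 and 636 CPM after OGD. In KO they were 1572, 1417, 1153, 1342 and 1402 CPM in normoxia and 542.996, 673.01, 542.96, 618 and 596 CPM after OGD. No OGD library reached the lowest normoxic one. The log2 changes were -1.17 ± 0.10 in WT and -1.21 ± 0.09 in KO (limma adjusted p = 2.3e-07 and 1.1e-07).

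The minor arm miR-409-5p was not called in either genotype. It averaged 319 ± 61.9 CPM in normoxic WT and 279.7 ± 19.0 CPM after OGD, and 326 ± 37.9 and 323.01 ± 37.9 CPM in KO, with log2 changes of -0.17 ± 0.14 and -0.01 ± 0.11 (limma adjusted p = 0.41 and 0.95). In normoxic WT, replicate 5 was the lowest of the 5 libraries at 213.8 CPM, and without it the WT change was -0.31 and called (limma adjusted p = 0.028), the lowest adjusted p over the left-out libraries. With centred libraries both changes were called and negative, at -0.73 and -0.52.

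The form miR-543-3p, whose 5p partner was rare, was also abundant and also fell. It had 1307, 1369, 1222, 1169 and 1429 CPM in normoxic WT and 642, 735, 572, 702 and 775 CPM after OGD. In KO it had 1471, 1641, 1426, 1429 and 1131 CPM in normoxia and 784, 962, 586, 867 and 701 CPM after OGD. The groups did not overlap in either genotype, and the log2 changes were -0.93 ± 0.10 and -0.87 ± 0.12 (limma adjusted p = 2.5e-06 and 4.9e-05). The partner miR-543-5p averaged 3.57, 3.66, 3.50 and 3.61 CPM in normoxic WT, OGD WT, normoxic KO and OGD KO, on 2 to 50 reads per library.

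The pair with the shared seed AUGUAAC comes from the first hairpins of the cluster, upstream of Mirg. For miR-411-3p the levels were 578, 514, 446, 479 and 465 CPM in normoxic WT and 301, 251, 200.5, 281 and 307 CPM after OGD. In KO they were 577, 476, 461, 493.6 and 446 CPM in normoxia and 279, 305, 238, 306 and 247 CPM after OGD. The groups did not overlap, and the log2 changes were -0.90 ± 0.13 and -0.84 ± 0.10 (limma adjusted p = 3.1e-05 and 8.3e-06).

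For miR-379-3p the WT levels were 269, 239, 241, 249 and 173 CPM in normoxia and 174, 137, 119.8, 181 and 175 CPM after OGD. The KO levels were 256, 215, 238, 239.5 and 216 CPM in normoxia and 152, 175, 156, 185 and 149 CPM after OGD. The KO groups did not overlap, while in WT replicate 5 of normoxia, at 173 CPM, lay among the OGD libraries. The log2 changes were -0.58 ± 0.15 and -0.51 ± 0.09 (limma adjusted p = 0.0073 and 5.8e-04).

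In both hairpins the 5p arm is the major one. The ratio of 5p to 3p in miR-379 changed by 0.35 ± 0.18 and 0.25 ± 0.14 on the log2 scale and was not called (limma adjusted p = 0.12 and 0.13). Without replicate 5 of normoxia it was called in both genotypes, at 0.50 in WT and 0.33 in KO (limma adjusted p = 0.0093 and 0.049, the lowest over the left-out libraries). The ratio in miR-411 was called with all libraries, as given with the arm ratios. The level of miR-411-5p averaged 1180 ± 69.1 CPM in normoxic WT and 1026 ± 98.4 CPM after OGD, and 1176 ± 82.6 and 1002 ± 109 CPM in KO. Its log2 changes of -0.21 ± 0.10 and -0.23 ± 0.09 were not called (limma adjusted p = 0.14 and 0.062). It was called lower in both with centring (-0.77 and -0.75) and with quantile normalization (-0.30 and -0.30, limma adjusted p = 0.027 and 0.024).

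The last lower members come from neighbouring hairpins in introns of Mirg. The level of miR-369-5p was 820.4, 736, 662, 749 and 748 CPM in normoxic WT and 557, 508, 450.2, 536 and 577 CPM after OGD. In KO it was 877, 755, 699.7, 740.1 and 655 CPM in normoxia and 597, 591, 416, 548 and 479 CPM after OGD. Again no OGD library reached a normoxic one, with log2 changes of -0.50 ± 0.10 and -0.51 ± 0.11 (limma adjusted p = 0.0011 and 0.002). The 3p arm of the hairpin, miR-369-3p, averaged 649 ± 165 and 724 ± 53.5 CPM in WT and 702 ± 37.2 and 750.2 ± 63.2 CPM in KO, in normoxia and after OGD, and was not called (limma adjusted p = 0.38 and 0.45). With centring it was called lower in KO (-0.42) and not in WT (-0.37).

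For miR-412-5p the WT levels were 70.9, 90.6, 79.9, 95.4 and 77.4 CPM in normoxia and 45.2, 58.3, 53.5, 70.2 and 57.2 CPM after OGD. The KO levels were 73.3, 98.5, 72.8, 85.0 and 93.9 CPM in normoxia and 43.2, 64.4, 42.7, 69.8 and 69.7 CPM after OGD. The groups came close but did not overlap. The log2 changes were -0.54 ± 0.14 and -0.57 ± 0.16 (limma adjusted p = 0.01 and 0.014). The KO call was lost without replicate 2 or 4 of normoxia or replicate 1 or 3 of OGD (limma adjusted p = 0.054 to 0.057). It was also lost on thinned libraries, although the change there was -0.63 (limma adjusted p = 0.096). Its partner miR-412-3p had at most 3 reads in any library.

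**Figure D3:**
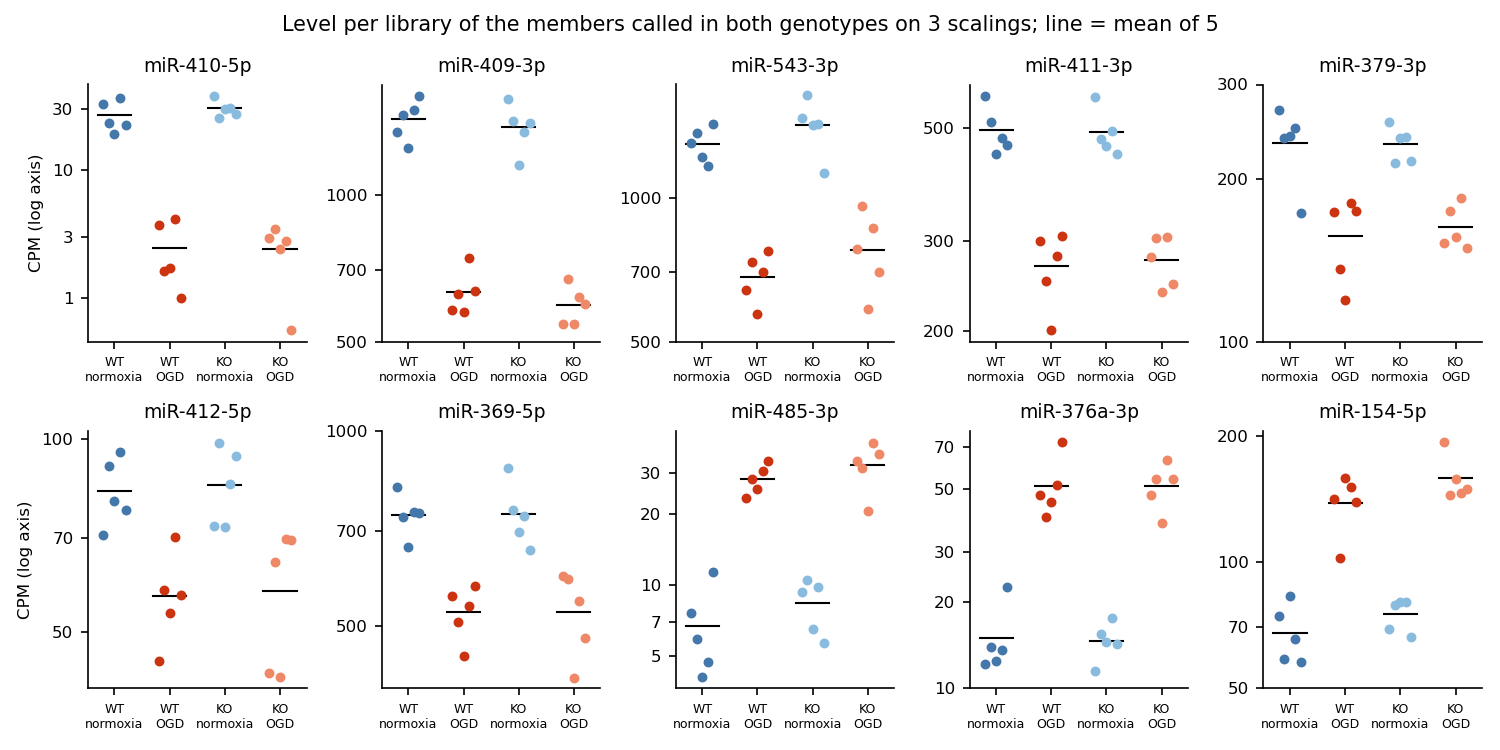
Level in CPM (log axis) of the 7 members called lower and the 3 called higher in both genotypes under all 3 scalings; each point is a library and each line the mean of 5. The normoxic and OGD libraries separate in each panel except for miR-379-3p in WT, where 1 normoxic library at 173 CPM lies among the OGD libraries.

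The largest rise was that of miR-485-3p, the minor arm of a hairpin in an exon of Mirg whose 5p form is known to act on synaptic proteins. It stood at 7.61, 5.87, 4.09, 4.72 and 11.3 CPM in normoxic WT and at 23.3, 28.1, 25.5, 30.6 and 33.6 CPM after OGD. In KO it stood at 9.31, 10.5, 6.48, 9.82 and 5.67 CPM in normoxia and at 33.8, 31.4, 20.7, 40.3 and 36.2 CPM after OGD. The groups did not overlap in either genotype. The log2 changes were 2.07 ± 0.24 and 1.90 ± 0.21 (limma adjusted p = 3.6e-06 and 3.0e-06), and 1.504 and 1.39 with centred libraries.

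Its major partner miR-485-5p had 60.9, 58.5, 48.0, 49.5 and 73.7 CPM in normoxic WT and 41.8, 45.8, 42.5, 48.0 and 49.7 CPM after OGD. In KO it had 77.6, 66.9, 69.9, 57.3 and 45.8 CPM in normoxia and 52.7, 53.7, 45.9, 38.9 and 46.2 CPM after OGD. The groups overlapped, with log2 changes of -0.33 ± 0.15 and -0.40 ± 0.14 that were not called (limma adjusted p = 0.12 and 0.052). Without replicate 5 of normoxia the KO change was -0.51 and called (limma adjusted p = 0.012, the lowest over the left-out libraries). With centring both were called, at -0.90 and -0.91, and with quantile normalization miR-485-5p was also called lower in both genotypes.

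The next largest rise that held under all 3 scalings was miR-376a-3p, from the miR-376 hairpins, whose primary transcripts are known substrates of A-to-I editing in brain. Its levels were 12.1, 13.9999, 12.5, 13.6 and 22.7 CPM in normoxic WT and 47.4, 39.8, 45.0, 51.5 and 72.8 CPM after OGD. In KO they were 11.5, 15.5, 14.5, 17.6 and 14.4 CPM in normoxia and 47.5, 54.1, 37.9, 63.2 and 54.1 CPM after OGD. Every OGD library lay above every normoxic one, although replicate 5 was the highest in both WT groups. The log2 changes were 1.75 ± 0.20 and 1.77 ± 0.15 (limma adjusted p = 3.2e-06 and 2.9e-07), and 1.19 and 1.26 with centring.

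The major arm miR-376a-5p averaged 79.5 ± 10.1 CPM in normoxic WT and 92.3 ± 6.78 CPM after OGD, and 87.4 ± 9.51 and 86.0 ± 7.62 CPM in KO. It was not called in either genotype (limma adjusted p = 0.25 and 0.90), but was called lower in KO with centring (-0.53) and with quantile normalization (-0.51). The related 3p forms were also higher on the scale of total reads: miR-376b-3p went from 340.6 to 455 CPM in WT and from 366 to 450.0 CPM in KO. The form miR-376c-3p went from 88.3 to 122 CPM and from 90.4 to 126.3 CPM. Their log2 changes on that scale, 0.42 and 0.29 for miR-376b-3p and 0.48 and 0.47 for miR-376c-3p, were called in both genotypes, while with centring their log2 changes were -0.14 and -0.22 for miR-376b-3p and -0.08 and -0.04 for miR-376c-3p, none of them called. The KO call of miR-376b-3p was also lost on thinned libraries, although the change there was 0.34 (limma adjusted p = 0.068).

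For miR-154-5p, the major arm of the hairpin that names the family, the WT levels were 74.2, 58.6, 83.0, 65.6 and 57.8 CPM in normoxia and 141, 102, 159, 151 and 139 CPM after OGD. The KO levels were 69.2, 78.9, 80.3, 80.1 and 66.3 CPM in normoxia and 193, 144.7, 158, 146 and 149 CPM after OGD. The groups did not overlap in either genotype. Its log2 changes were 1.02 ± 0.15 and 1.07 ± 0.11 (limma adjusted p = 3.9e-05 and 1.5e-06), and 0.46 and 0.56 with centring. Its partner miR-154-3p also rose on the scale of total reads, from 39.1 ± 9.91 to 55.1 ± 5.47 CPM in WT and from 47.7 ± 4.88 to 68.3 ± 10.5 CPM in KO, with log2 changes of 0.52 and 0.51 that became -0.04 and -0.005 with centring. The WT call of miR-154-3p was also lost on thinned libraries, although the change there was 0.70 (limma adjusted p = 0.084).

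The other rises rest on few reads or on the scaling. The levels of miR-679-5p were 0.832, 1.99998, 2.23, 2.83 and 3.78 CPM in normoxic WT and 6.14, 4.42, 9.34, 7.65 and 7.03 CPM after OGD, on 7 to 25 reads per library. In KO they were 1.996, 1.62, 1.53, 1.03 and 2.45 CPM in normoxia and 5.20, 3.44, 6.38, 4.17 and 10.03 CPM after OGD. Its log2 changes of 1.45 ± 0.32 and 1.46 ± 0.29 were called (limma adjusted p = 0.0024 and 0.0011), but the WT call was lost with quantile normalization and on thinned libraries. The thinned change was not smaller, at 1.79 (limma adjusted p = 0.056). Normoxic and OGD libraries of miR-679-5p did not overlap. For miR-666-3p the means went from 2.85 ± 0.946 to 8.49 ± 1.72 CPM in WT and from 3.02 ± 0.830 to 7.05 ± 1.77 CPM in KO, with log2 changes of 1.45 and 1.11 and limma adjusted p of 3.9e-04 and 0.002. The KO call of miR-666-3p was lost with centring, with quantile normalization and on thinned libraries (0.96, limma adjusted p = 0.28). For miR-544-3p the means went from 9.02 ± 1.88 to 13.99 ± 2.82 CPM in WT and from 9.47 ± 0.935 to 14.3 ± 1.95 CPM in KO (log2 changes 0.61 and 0.57). With centring its changes were 0.05 and 0.06, with quantile normalization -0.0007 and 0.006, and the WT call was lost when any of 7 libraries was left out (limma adjusted p = 0.060 to 0.094) and on thinned libraries (0.71, limma adjusted p = 0.36). The remaining form, miR-299a-3p, went from 23.9 to 33.7 CPM in WT and from 24.0 to 32.7 CPM in KO, without overlap in either. It turned to -0.08 and -0.07 with centring, and its KO call was lost on thinned libraries (0.44 to 0.21, limma adjusted p = 0.65).

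Calls in one genotype alone were few. In WT, miR-299a-5p and miR-380-3p were called higher. In KO, miR-329-5p and miR-300-5p were called higher and miR-323-3p, miR-487b-5p and miR-496a-5p lower. In KO after OGD miR-300-5p had 4 to 6 reads per library, miR-487b-5p 0 to 4 and miR-496a-5p 0 or 1, so these calls lie near the floor of 3 reads. These forms were named because they were called, and for none of them was the difference between genotypes called. On thinned libraries all 7 of these calls were lost. The log2 change stayed close for miR-323-3p (-0.293 to -0.292), miR-329-5p (0.32 to 0.35) and miR-380-3p (0.39 to 0.36). It shrank for miR-299a-5p (0.69 to 0.50), miR-300-5p (1.09 to 0.68), miR-487b-5p (-1.12 to -0.61) and miR-496a-5p (-0.83 to -0.005). The 4 higher calls were lost with centring and with quantile normalization. Under both of those scalings miR-496a-5p, like miR-323-3p, was called lower in both genotypes. Likewise miR-487b-5p and miR-299a-5p were called lower under both in KO alone, and miR-380-3p was called lower in KO with centring.

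The ratio of the arms of a hairpin within a library does not depend on how libraries are scaled, apart from the pseudocount. It was tested by limma on the log2 of the 5p to 3p CPM ratio over the 126 hairpins of the series whose arms both averaged at least 5 CPM, of which 18 are in the cluster. In WT, 10 of the 18 were called, 3 toward 5p and 7 toward 3p after OGD, where 57.9% of all hairpins were called, 27.8% toward 5p and 30.2% toward 3p. In KO, 13 were called, 5 toward 5p and 8 toward 3p, where 64.3% of all were called, 31.0% and 33.3%. Shifts of the arm ratio thus came at a share near the background, and their median size was 0.48 in WT and 0.55 in KO on the log2 scale against 0.52 and 0.51 over all hairpins. Called in both genotypes with the same sign were 9 hairpins of the cluster: miR-410, miR-485, miR-376a, miR-666, miR-369 and miR-667 toward 3p, and miR-409, miR-411 and miR-154 toward 5p. Of these, miR-410 and miR-666 passed the limit of 5 CPM through one condition alone, since miR-410-5p averaged above it in normoxia and under it after OGD, and miR-666-3p the reverse, so their selection and their shift are not independent. Among the hairpins with both arms at 5 CPM in every group, 8 of 16 in the cluster were called in WT (3 toward 5p and 5 toward 3p) and 62 of 105 in all (59.0%). In KO, 11 of 16 were called (5 and 6) and 70 of 105 in all (66.7%). With the lower limit at 20 CPM, 9 cluster hairpins of 68 in all were tested. Of the 9, in WT 4 were called toward 5p and 3 toward 3p (36.8% and 30.9% of the 68), and in KO 4 and 2 (39.7% and 30.9%). On thinned libraries 2 of the 18 were called toward 5p and 6 toward 3p in WT (21.4% and 24.6% of all hairpins), and 3 and 4 in KO (26.2% and 23.8%).

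The share of 5p reads in the miR-410 hairpin was 4.64, 2.93, 2.22, 4.22 and 3.37% in the normoxic WT libraries and 0.457, 0.168, 0.166, 0.336 and 0.0965% after OGD. In KO it was 4.73, 3.002, 3.52, 3.50 and 3.11% in normoxia and 0.314, 0.337, 0.277, 0.260 and 0.0471% after OGD. The groups were wide apart in both genotypes. The log2 ratio changed by -3.73 ± 0.32 (SE) in WT and -3.81 ± 0.33 in KO (limma adjusted p = 1.8e-06 and 8.2e-07). The 5p arm passed the limit of 5 CPM through the normoxic libraries alone, so the size of this shift is not ranked against other hairpins.

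In the miR-485 hairpin the 5p share was 88.9, 90.9, 92.2, 91.3 and 86.7% in normoxic WT and 64.2, 62.0, 62.5, 61.1 and 59.6% after OGD. In KO it was 89.3, 86.4, 91.5, 85.4 and 89.0% in normoxia and 60.9, 63.1, 68.9, 49.1 and 56.1% after OGD. Every OGD library thus lay below every normoxic one, on 80 to 266 reads of the hairpin per OGD library. The log2 ratio changed by -2.40 ± 0.16 and -2.30 ± 0.21 (limma adjusted p = 1.9e-07 and 8.2e-07).

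In the miR-376a hairpin the 5p share was 87.2, 85.8, 87.8, 84.8 and 73.8% in normoxic WT and 65.7, 68.3, 68.8, 65.9 and 54.3% after OGD. In KO it was 88.1, 86.4, 86.6, 83.2 and 83.6% in normoxia and 65.2, 64.1, 66.7, 56.9 and 61.2% after OGD. Replicate 5 was the lowest of both WT groups, and the groups still did not overlap. The log2 ratio changed by -1.53 ± 0.25 and -1.79 ± 0.15 (limma adjusted p = 3.0e-04 and 7.3e-07).

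The miR-409 hairpin shifted the other way, its 3p form having fallen while its 5p form was not called. The 5p share was 21.8, 18.4, 20.9, 18.9 and 11.8% in normoxic WT and 32.8, 31.8, 30.4, 28.8 and 29.9% after OGD. In KO it was 16.4, 19.6, 18.9, 21.4 and 19.6% in normoxia and 37.5, 34.9, 32.7, 36.2 and 34.5% after OGD. The groups did not overlap, and the log2 ratio changed by 1.01 ± 0.19 and 1.196 ± 0.12 (limma adjusted p = 6.8e-04 and 1.6e-06).

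The other shared shifts are given as means. In the miR-666 hairpin, which gives nearly all its reads from 5p, the 5p share went from 99.2% ± 0.166 to 97.4% ± 0.558 in WT (SD, n = 5) and from 99.0% ± 0.406 to 97.4% ± 0.7099 in KO, and the KO call was lost on thinned libraries. Its major arm miR-666-5p averaged 343 and 319 CPM in WT and 309 and 274 CPM in KO, in normoxia and after OGD, and was called lower in both genotypes with centring alone among the 3 scalings (-0.66 and -0.69). In the miR-369 hairpin it went from 54.0% ± 7.93 to 42.1% ± 3.63 and from 51.4% ± 3.93 to 41.1% ± 3.82. In the miR-411 hairpin it rose from 70.4% ± 1.22 to 79.4% ± 1.57 and from 70.6% ± 1.01 to 78.5% ± 1.29. The miR-154 hairpin went from 63.8% ± 4.15 to 71.4% ± 1.95 and from 61.2% ± 0.950 to 69.9% ± 3.46, and miR-667 from 58.1% ± 3.57 to 45.8% ± 6.32 and from 55.2% ± 4.57 to 46.4% ± 4.28. All of these were called in both genotypes (limma adjusted p from 6.3e-06 to 0.013 in WT and from 2.7e-04 to 0.013 in KO), but on thinned libraries miR-667 lost both calls and miR-154 the one in WT.

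**Figure D4:**
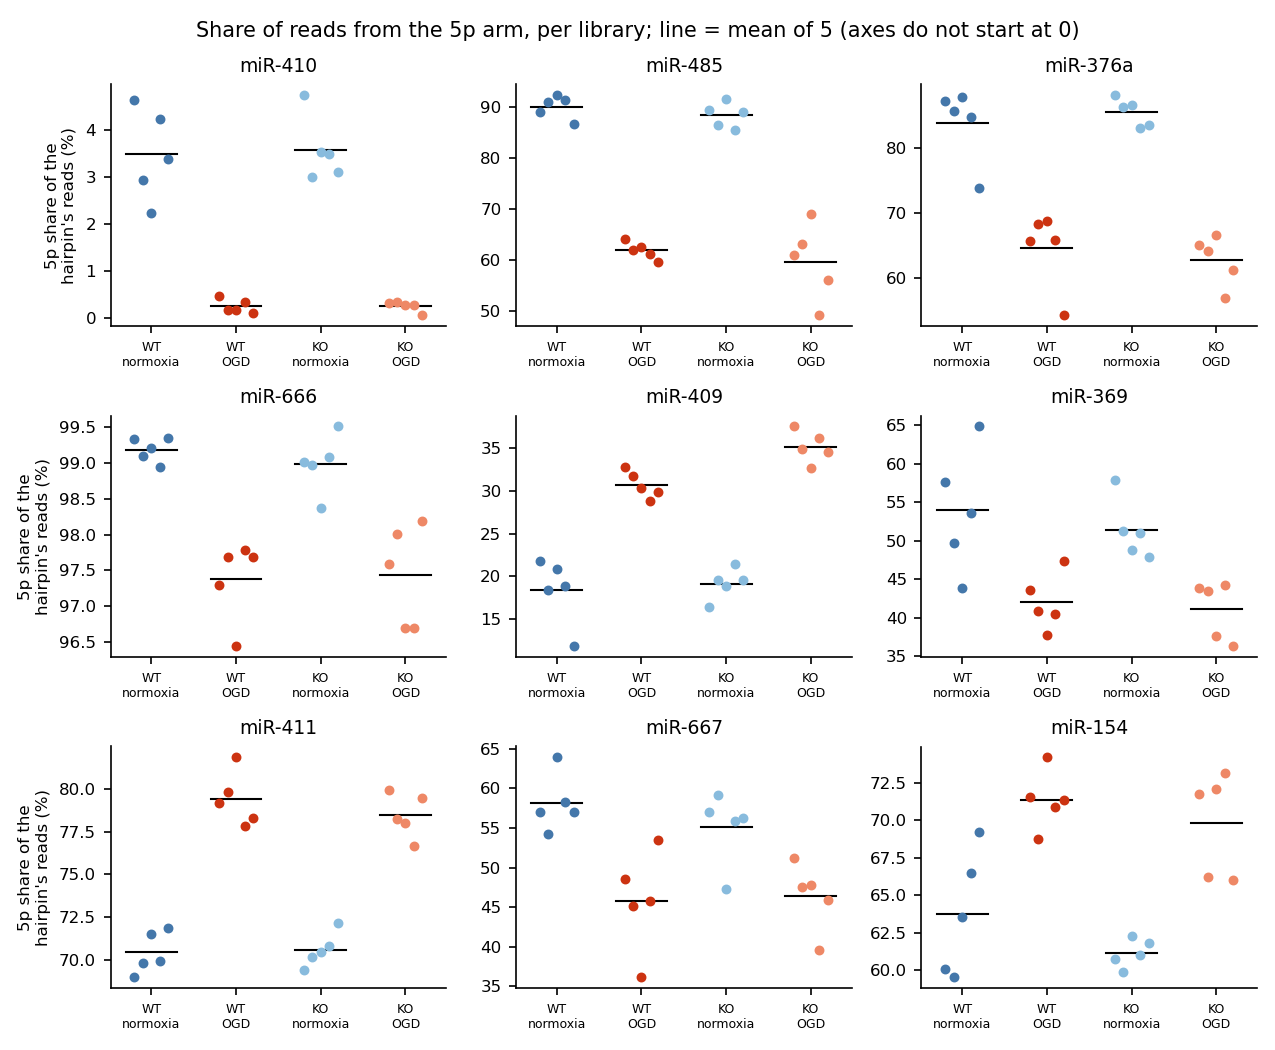
Share of a hairpin's reads that come from its 5p arm (percent) in each library, for the 9 hairpins whose arm ratio was called in both genotypes; points are libraries and lines the mean of 5, and the vertical axes do not start at 0. The share in miR-410 goes from 2.22% to 4.73% in normoxia to under 0.46% after OGD, and that in miR-409 rises.

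Among the members that fell in both genotypes were major arms (miR-409-3p, miR-543-3p and miR-412-5p), minor ones (miR-410-5p, miR-379-3p and miR-411-3p) and miR-369-5p, whose hairpin gave both arms in near-equal amounts. Over all members the median log2 change of OGD over normoxia was 0.005 for 34 5p and 0.20 for 35 3p forms in WT, and -0.05 and 0.14 in KO. Among the 49 members at 5 CPM or more it was -0.10 for 21 5p and 0.19 for 28 3p forms in WT, and -0.17 and 0.16 in KO. The 5p forms thus sat lower than the 3p forms in the middle of their ranges. This is a description of arms that share hairpins and libraries.

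Position along the cluster was nearly unrelated to the signed log2 change, a measure in which large falls and rises near each other can cancel. The Spearman rho between the order of the hairpin and the log2 change was -0.02 in WT and 0.02 in KO over 69 members, and 0.004 and 0.06 over the 49 at 5 CPM or more. The 24 members of the hairpins within Mirg had a median change of 0.07 in WT and 0.00 in KO, and the 45 upstream of it 0.18 and 0.05. The hairpins at the start of the cluster (miR-379 and miR-411) and at its end (miR-409 to miR-410) both held forms that fell. The G and C content of the mature sequence gave a rho of -0.14 in WT and -0.24 in KO over 65 members, and the mean level gave -0.20 and -0.22 over 69. At 5 CPM or more, G and C content gave -0.21 and -0.27 over 46 members, and the mean level -0.34 and -0.22 over 49. All members come from the same libraries, and several from the same hairpin, so these coefficients are descriptions.

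Of the 33 neighbours in the same domain, 8 were called higher and 7 lower in WT (against 18.7% and 4.4% of all features) and 9 higher and 8 lower in KO (against 18.8% and 5.75%), with medians of 0.13 and -0.10. Among their abundant forms, miR-370-3p fell from 6305 ± 715 to 2833 ± 255 CPM in WT and from 6140 ± 578 to 2744 ± 361 CPM in KO (log2 changes -1.15 and -1.17). The form miR-434-3p was also called lower in both genotypes under all 3 scalings (-0.34 and -0.37), while the WT call of miR-127-3p (-0.31 in WT and -0.40 in KO) was lost with quantile normalization and on thinned libraries. These neighbours were picked out after their values were seen.

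The loss of ciRS-7 was compared within each condition. In normoxia, 0 of the 69 members and 0 of all 1481 features (0.0%) were called by limma between KO and WT, with 3 members, each averaging under 5 CPM, and 47 features at an unadjusted p under 0.05. After OGD, 0 members and 0 features (0.0%) were called, with 3 members and 108 features at an unadjusted p under 0.05. Limma voom on the reads also called 0 members in both. Other settings made single calls. The deposited values gave miR-494-5p lower in KO in normoxia (0.405% of all features were lower), and after OGD miR-409-5p higher (1.55%) and miR-299a-5p and miR-377-5p lower (3.31%). Extremes in the deposited values are pulled inwards within each group. That narrows the spread limma sees, so its adjusted p runs too low there and these calls are not reliable. Thinned libraries gave miR-376c-5p higher after OGD (0.0675%). Before thinning miR-376c-5p had 0 to 6 reads per library, and miR-494-5p had 0 to 3, with a read in 8 of the 20 libraries. Both calls thus lie near the floor of 3 reads. The members' log2 differences ran from -0.39 to 0.63 in normoxia and from -0.62 to 0.96 after OGD, with medians of 0.04 and 0.01. For the 49 members at 5 CPM or more the range was -0.14 to 0.34 in normoxia and -0.62 to 0.30 after OGD. A single member was without overlap in each condition, miR-412-3p in normoxia (on at most 3 reads) and miR-299a-5p after OGD, where 0.54% and 0.945% of all features were, and both were picked out after their values were seen.

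The differences between genotypes are given for the most abundant forms and the largest falls, none of them called. The form miR-381-3p differed by -0.08 ± 0.12 (log2, KO over WT, SE) in normoxia and -0.12 ± 0.11 after OGD, and miR-379-5p by -0.09 ± 0.12 and -0.13 ± 0.10. The form miR-409-3p differed by -0.05 ± 0.10 and -0.09 ± 0.10. For miR-410-5p the difference was 0.20 ± 0.18 in normoxia and -0.002 ± 0.43 after OGD, on 1 to 15 reads per library.

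The OGD effect itself was compared between genotypes by an interaction term over all 20 libraries. Limma and voom both called 0 members (0.0% of all features by limma), and 2 members, miR-299a-5p and miR-377-5p, had an unadjusted p under 0.05, as had 74 of all features. Within KO, miR-377-5p was called lower after OGD with centring and with quantile normalization, but not on the scale of total reads. In WT it was called under none of the 3 scalings. The level of miR-299a-5p was 6.78, 7.25, 5.82, 5.67 and 6.42 CPM in normoxic WT, 8.85, 13.3, 10.2, 10.4 and 10.5 CPM in OGD WT, 7.32, 6.35, 7.16, 7.85 and 7.45 CPM in normoxic KO and 7.80, 6.87, 7.18, 6.25 and 5.57 CPM in OGD KO, with an interaction of -0.79 ± 0.24 (limma adjusted p = 0.58). The interaction for the 10 members that held under every scaling was called for none of them, with -0.20 ± 0.44 for miR-410-5p, -0.03 ± 0.14 for miR-409-3p, -0.17 ± 0.32 for miR-485-3p and 0.02 ± 0.26 for miR-376a-3p among the values. The arm ratios gave 0 calls between genotypes in normoxia, after OGD and in the interaction (0.0% of 126 hairpins each), with 0, 3 and 2 of the 18 cluster hairpins at an unadjusted p under 0.05 by limma, against 0, 21 and 5 of all 126 (0.0%, 16.7% and 3.97%).

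**Figure D5:**
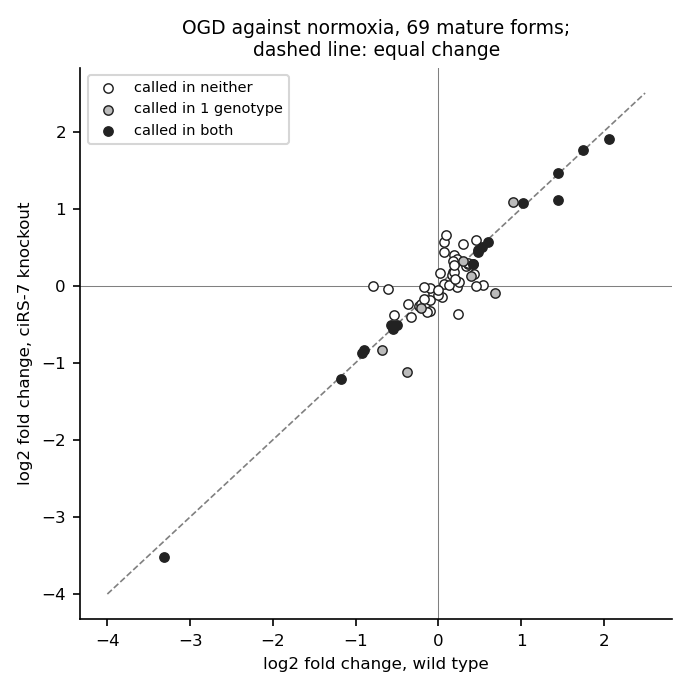
Log2 fold change of OGD over normoxia for the 69 mature forms in WT (horizontal) and KO (vertical); black points were called by limma in both genotypes, grey in 1 and white in neither, and the dashed line marks equal change. The 18 forms called in both lie near the dashed line.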

How the data were processed

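Small RNA libraries were made from TRIzol RNA after DNase treatment with the NEBNext Small RNA kit and size selection, per the labels' protocols. The submitters' processing notes name the build mm10, and the aligner, counter and miRBase release are not given in the sources used here. The authors deposited 6 tables of scaled values, treated here as a score. Their names call them log CPM. Their range and steps match scaled reads raised to a power (0.106 to 0.118), with the extremes of each group of 5 pulled inwards. Undoing both steps gave whole reads for 100% of values (within 0.05 of a whole number), against 73.5% to 75.4% without restoring the extremes. This recovery is an inference from the values, and the deposited values themselves were an alternative. Reads agreed between tables in 59070 comparisons with 0 differences, and 23.8% of recovered values were 0. CPM used the authors' library factors, 0.923 to 1.08 times the total, and 3 reads were taken as the floor, for counting error only.

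Limma 3.58.1 in R 4.3.3 was fitted to log2(CPM + 0.5) of all features within each pair of groups, and to all 20 libraries for the interaction. Errors printed after log2 changes are SE. Benjamini-Hochberg adjustment ran over all features, 2-sided, at 0.05. Tables were handled in Python 3.11.15 with pandas 2.3.3 and scipy 1.17.1, and the fits were tested on simulated data. Alternatives were a pseudocount of 2 CPM, a filter at mean log2 3, centring, quantile normalization, voom, thinning, other arm limits, the replicate block and each library left out. The rule for named members took the 6 most abundant, the 6 largest falls and rises shared by both genotypes, both arms of the 6 largest shared arm shifts, and the arms of miR-379, miR-410 and miR-134. Other members named were chosen after their values were seen. The members and lists were chosen with earlier results of these data known, and the falls of miR-410-5p and miR-409-3p were among them. Replicates of a group differed by more than sampling noise.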

Additional observations from a re-analysis of the deposited data

Results flagged for a closer look

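In 7 of 140 groups of 5 libraries, 1 library stood far from the other 4, a rate that chance alone gives in about 1 in 20 groups. In normoxic WT, replicate 5 was high for miR-376a-3p, with 22.7 CPM where the next highest library had 13.9999 CPM, and low for miR-409-5p, with 213.8 CPM where the next lowest had 328.997 CPM. The 5p share of the miR-376a hairpin was low in the same library, at 73.8% against 84.8% to 87.8%, and in replicate 5 of OGD WT, at 54.3% against 65.7% to 68.8%. In OGD KO, miR-154-5p was high in replicate 1, at 193 CPM against 145 to 158 CPM, and the 5p share of miR-410 was low in replicate 5, at 0.0471% against 0.260% to 0.337%. In normoxic KO, miR-369-3p was low in replicate 1, at 638 CPM against 711 to 734 CPM. Replicate 5 of normoxic WT holds 3 of these 7 values.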

How the results depend on the processing

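Scaling moved the counts of called members most. Members higher and lower after OGD were 5 and 29 in WT and 4 and 34 in KO with centred libraries, 5 and 19 in WT and 4 and 24 in KO with quantile normalization, and 20 and 16 in WT (24.9% and 7.37% of all features) and 19 and 15 in KO (22.9% and 9.26%) with the deposited values. Because the deposited extremes are pulled inwards within each group, limma calls on those values, here and below, come too easily. On thinned libraries 8 members were higher in WT and 7 in KO. With both arms at 20 CPM or more, 3 hairpins in WT and 2 in KO were called toward 3p, of 9 tested (30.9% of all 68 hairpins in each). On thinned libraries 3 in KO were called toward 5p (26.2% of all 126) and 4 toward 3p (23.8%). Between KO and WT, the deposited values gave 1 member lower in normoxia (0.405% of all features), and 1 higher (1.55%) and 2 lower (3.31%) after OGD, and thinning gave 1 higher after OGD (0.0675%). The rho with order along the cluster in KO was 0.11 among features of mean log2 level 3 or more and -0.036 with voom.

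Without single libraries the counts ran from 8 to 13 higher and 7 to 9 lower in WT, and from 9 to 14 higher and 6 to 10 lower in KO. Hairpins toward 5p and 3p ran from 3 to 4 and 6 to 8 in WT, and from 4 to 5 and 8 to 8 in KO. The genotype and interaction counts stayed at 0. The difference in summed CPM ran from -2879 to -494 in WT and from -2875 to -1138 in KO, and the rho with order from -0.05 to 0.01 and from 0.006 to 0.06. These changes of sign came without single libraries: miR-381-3p (-0.028 to 0.16), miR-541-5p (-0.053 to 0.068) and miR-134-5p (-0.11 to 0.062) in WT, and miR-381-3p (-0.019 to 0.074), miR-376a-5p (-0.083 to 0.022), miR-409-5p (-0.080 to 0.058) and miR-134-5p (-0.11 to 0.027) in KO. With CPM of the plain total reads (an alternative added once the data had been seen) the summed differences were -1342 in WT and -2339 in KO, against -1508 and -2058.

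Among members called higher in both genotypes, miR-376b-3p, miR-376c-3p, miR-154-3p and miR-299a-3p also turned negative with centring, with the values given in the report. For the members of the naming rule, with centring the log2 changes in WT were -0.49 for miR-381-3p, -0.40 for miR-300-3p, -0.55 for miR-541-5p, -0.15 for miR-410-3p, -0.34 for miR-376a-5p, -0.37 for miR-369-3p and -0.34 for miR-134-3p. In KO they were -0.49 for miR-381-3p, -0.37 for miR-300-3p, -0.34 for miR-541-5p, -0.23 for miR-410-3p, -0.42 for miR-369-3p and -0.16 for miR-134-3p. With quantile normalization they were -0.063 for miR-541-5p, -0.00070 for miR-544-3p, -0.33 for miR-376a-5p and -0.43 for miR-134-3p in WT and -0.20 for miR-134-3p in KO. The deposited values gave differences of the score, not log2 changes, of -0.024 for miR-541-5p in WT and 0.00046 for miR-409-5p in KO. Thinning gave a log2 change of 0.019 for miR-134-5p in WT. Deposited values called miR-300-3p higher and miR-382-5p and miR-485-5p lower in both genotypes, miR-376a-5p higher and miR-323-3p and miR-409-5p lower in WT, and miR-379-5p lower in KO. Voom and the filter on level called miR-379-5p and miR-485-5p lower in KO. The cause of these changes was not tested.

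The sample titles reuse the same numbers in normoxia and after OGD, but the labels do not say that these numbers pair libraries. In each comparison at least 1 same-numbered pair correlated under 0.1, which cannot exclude a pairing. No pairing was taken as given. Deviations of same-numbered libraries correlated from -0.17 to 0.66 in WT, -0.21 to 0.49 in KO, -0.38 to 0.67 between genotypes in normoxia and 0.016 to 0.54 after OGD. In WT, 3 of the numbers matched best with themselves across OGD and normoxia, and 1 did in each other comparison. With the replicate number as a block, 14 members were higher and 8 lower in WT (21.1% and 5.21% of all features) and 13 and 12 in KO (20.8% and 6.49%), and the block with centred libraries gave 5 and 33 in WT (7.65% and 20.6%) and 4 and 35 in KO (7.98% and 23.5%), with the log2 changes under centring given above.
Depth limits the rare members: 10 of the 69 averaged under 1 CPM, and values of 3 reads or fewer lie at the floor.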
